A study of Mus musculus with 48 samples.

Results

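The clustered histone genes are the gene copies, packed into a few chromosomal clusters, that encode the linker histone H1 and the core histones H2A, H2B, H3 and H4. Members were taken as every gene whose GENCODE M21 symbol begins with Hist1h, Hist2h, Hist3h or Hist4h, matched by Ensembl identifier without its version. The annotation holds 70 such genes, of which 67 are in the 4 expression tables, among 22055 genes in all; the other 3 are pseudogenes and were not analysed here. By histone type there are 6 H1, 18 H2A, 18 H2B, 12 H3 and 13 H4 members. By cluster, 54 lie in Hist1 on chromosome 13, 10 in Hist2 on chromosome 3, 2 in Hist3 on chromosome 11 and 1 in Hist4 on chromosome 6. The samples come from wild-type C57BL/6 mice at postnatal day 42 (P42, young adult) and at embryonic day 15.5 (E15.5), and cover 6 tissues: heart, liver, kidney, lung, brain and retina. Each tissue and stage was profiled by Ribo-seq, which sequences the messenger fragments protected by ribosomes (footprints), and by RNA-seq of poly(A)-selected RNA, with 2 biological replicates of each, 48 libraries in 24 groups. No treatment or mutation enters the design, and the labels do not give the sex of the animals or whether animals were pooled.

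Histones are the proteins around which DNA is wound: H2A, H2B, H3 and H4 form the core of the nucleosome and H1 sits on the DNA that links nucleosomes. Most clustered histone genes are replication-dependent: their mRNA accumulates in S phase, is cleaved behind a short stem-loop bound by SLBP instead of receiving a poly(A) tail, and is degraded when DNA synthesis ends. Some copies can also give polyadenylated transcripts, in particular in cells that have stopped dividing. Poly(A)-selected RNA-seq therefore sees the tailed part of these transcripts, whereas footprints come from transcripts with or without a tail.

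The values are TPM, which scale reads by the annotated exonic length of each gene and by the library total, and the read depth per library is unknown. Per library, 8944 to 13236 genes reached 1 TPM by Ribo-seq and 10525 to 14572 by RNA-seq, and replicates correlated across genes at r of 0.976 to 0.999 and 0.987 to 0.999 in the same order. The listed genes summed to 23.1 to 61.1% of each library's TPM total by Ribo-seq and 48.9 to 93.4% by RNA-seq. The lowest RNA-seq share was that of E15.5 kidney replicate 2, whose members summed to 562 TPM, against 275 TPM in E15.5 kidney replicate 1. Several results that use that library are given with and without it. Among those given only with it are the kidney comparison of directions between the assays, the kidney footprint-to-mRNA ratio and the mRNA contrasts between tissues at E15.5. P42 and E15.5 values were deposited in separate tables for each assay, so stage and table cannot be told apart. P-values measure only the spread between samples labelled as biological replicates, 2 per group. All 4 marker genes of the labelled tissue were at 1 TPM or above in every library, except that 3 of 4 were in 3 of the 4 E15.5 retina libraries. In the P42 Ribo-seq libraries the 4 lung markers also summed to 108 and 354 TPM in heart and 167 and 742 TPM in kidney, against 43812 and 43208 TPM in lung, while by RNA-seq they were at most 1.13 TPM in P42 heart and kidney. Whether footprints of another tissue enter the P42 member levels was not tested. Because these are bulk tissues, fewer cells of a dividing type and less histone RNA per cell cannot be told apart.

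Clustered histone copies resemble each other, which limits how a read can be assigned to one of them. A median of 39.3% of a member's 30-base windows were found in no other gene's transcript, with a range from 0% to 100%, and 42 members were under 50%. The 5 members at 0% were Hist2h2aa1, Hist2h2aa2, Hist2h2bb, Hist2h3b and Hist2h3c1. Other genes here include any annotated over the same bases, on either strand, so a shared window need not lie in another histone copy. Exons of 24 members overlap another annotated gene, for example those of Hist2h2bb with Gm42743 on the same strand and Gm20628 on the other. How the counting treated reads that match several genes, and whether it used strand, is not given in the sources used here, so the level of a single copy is uncertain where its sequence or exons are shared, and sums over members are less so. Footprints fall on coding sequence while TPM divides by all exonic bases, so members with long annotated ends, such as Hist1h1d with 7425 exonic bases of which 663 are coding, have low footprint TPM for their number of reads.

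The stem-loop is the element that separates these transcripts from other mRNA, and it was searched after the stop codon of the annotated transcripts as a 16-base hairpin with a GG at its start and a CC at its end. It was found in 46 of the 52 members that have at least 20 annotated bases after the stop codon, beginning a median of 31 bases (range 21 to 58) after it; the other 15 members have fewer annotated bases there. Among other annotated genes, searched over their whole transcripts, it was found in 60 of 55383 (0.108%). The hairpin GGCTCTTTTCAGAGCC accounted for 26 of the 46 matches, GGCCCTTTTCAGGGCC for 7 and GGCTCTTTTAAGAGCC for 6. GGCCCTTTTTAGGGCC was found in Hist1h4i and Hist2h4, which both come back below. Behind the hairpin, 23 members have more than 100 further annotated bases, so that their annotated transcript runs on beyond the element. The sequences of members that carry the main results are shown 5′ to 3′ on the transcribed strand, in GRCm38 coordinates, with the 16 bases of the hairpin in capitals and 5 bases on either side.
Hist1h1c (chr13:23739507-23739532, plus strand): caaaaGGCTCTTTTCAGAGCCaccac
Hist1h4h (chr13:23531453-23531478, plus strand): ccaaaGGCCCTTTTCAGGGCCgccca
Hist1h4i (chr13:22040961-22040986, minus strand): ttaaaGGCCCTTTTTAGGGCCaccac
Hist3h2a (chr11:58955167-58955192, plus strand): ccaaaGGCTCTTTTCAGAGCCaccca
Hist3h2ba (chr11:58949344-58949369, plus strand): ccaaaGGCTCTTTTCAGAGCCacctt
Hist1h2bc (chr13:23684199-23692908), Hist2h2be (chr3:96221119-96223738) and Hist1h1a have annotated bases after the stop codon and no match to the hairpin within them.

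Promoter windows of 250 bases before and 50 after the RefSeq start were available for 62 members, 61 of them within 300 bases of the GENCODE start. The motif CCAAT, with ATTGG on the other strand, was in 52 of the 61 windows (85.2%), against 37.3% of 32788 other windows of the same length. It was in all H1, H2A, H2B and H3 windows and in 3 of 12 H4 windows (25%). TATAAA, with TTTATA on the other strand, was in 34 windows (55.7%), against 13.5% of the others. The octamer ATTTGCAT, searched on both strands, was in 13 windows (21.3%), against 1.7%, and all 13 were H2A (38.9% of windows) or H2B (37.5%) promoters. Of the 61 windows 20 overlap that of another member, and 6 of the 13 windows with the octamer share a match with another window, so that the 13 hold 10 distinct matches. Matches to the 3 motifs may share letters at their edges, and a match is only a run of letters. A pair of H2B promoters is shown: that of Hist2h2bb, the member with the most E15.5 footprints, which holds CCAAT and the octamer, and that of Hist3h2ba, the member with the most brain mRNA, which holds CCAAT and TATAAA. Sequences are from RefSeq on GRCm38.p6, 5′ to 3′, with the searched motifs in capitals.
Hist2h2bb (chr3:96269450-96269749, plus strand): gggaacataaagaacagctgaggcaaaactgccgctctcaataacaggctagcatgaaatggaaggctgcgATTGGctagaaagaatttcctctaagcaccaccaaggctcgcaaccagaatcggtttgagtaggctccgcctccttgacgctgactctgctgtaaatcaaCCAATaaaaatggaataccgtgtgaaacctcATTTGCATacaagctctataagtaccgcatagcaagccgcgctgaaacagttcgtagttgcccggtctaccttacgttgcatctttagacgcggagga
Hist3h2ba (chr11:58948661-58948960, plus strand): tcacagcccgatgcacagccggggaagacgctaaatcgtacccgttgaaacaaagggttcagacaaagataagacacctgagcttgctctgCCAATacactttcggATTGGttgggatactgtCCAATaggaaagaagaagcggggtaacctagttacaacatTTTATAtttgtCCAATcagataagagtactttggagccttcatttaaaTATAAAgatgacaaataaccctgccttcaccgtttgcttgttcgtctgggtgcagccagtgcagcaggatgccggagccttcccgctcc

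Footprints on the clustered histone genes were lower at P42 than at E15.5 in every tissue. Summed over the 67 members, brain had 1811 and 1551 TPM of footprints at P42, against 31226 and 15470.5 TPM at E15.5. Retina had 2667 and 2671 TPM at P42 and 50602 and 49453 TPM at E15.5. The E15.5 brain libraries differed from each other more than the retinal ones did, and in both tissues every E15.5 value lay far above every P42 value. In heart the sums were 2638 and 2839 TPM at P42, against 22827 and 13955 TPM at E15.5. Kidney had 1839 and 1951 TPM at P42 and 44541 and 42089 TPM at E15.5. Liver showed the widest gap, with 587 and 1003 TPM at P42, against 78349 and 87382 TPM at E15.5. Lung had the highest P42 sums, 4160 and 3348 TPM, against 43597 and 45241 TPM at E15.5. The E15.5 to P42 ratio of mean sums ranged from 6.72 in heart to 104 in liver, and it was 10.47 in heart when the 3 testis forms described further on were left out. As a share of the footprint TPM of all listed genes, the members took 0.135 to 1.03% at P42 and 3.41 to 21.4% at E15.5.

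**Figure D1:**
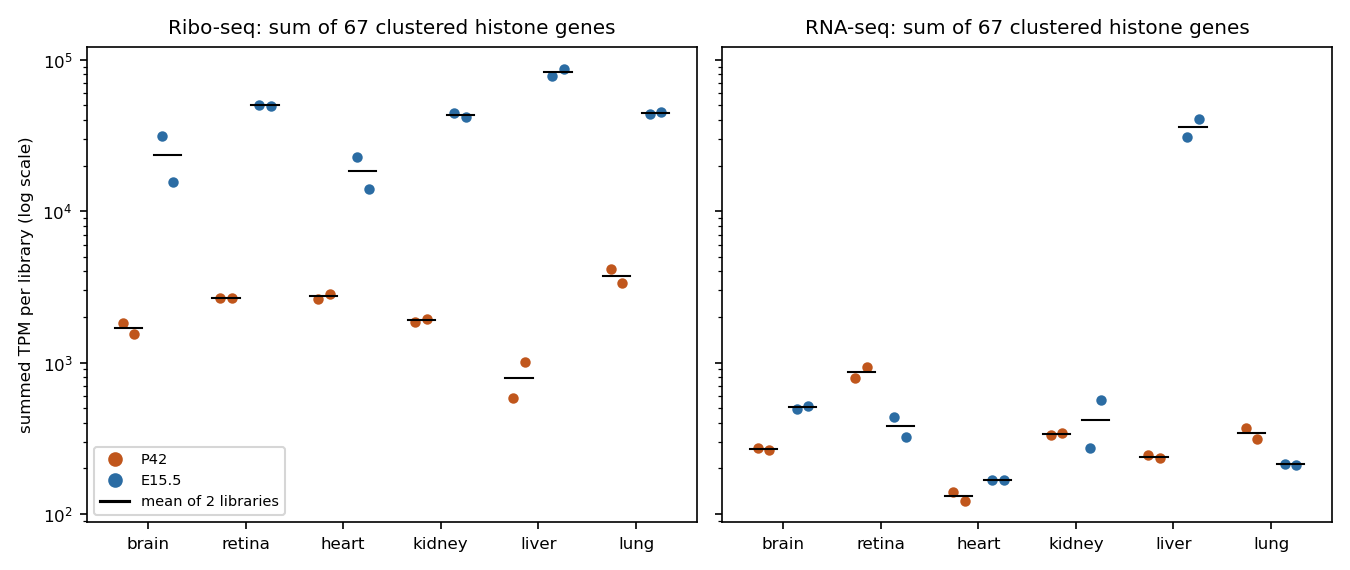
Summed TPM of the 67 clustered histone genes in each library (log axis), by tissue, with P42 left of E15.5, for Ribo-seq and RNA-seq. Each point is 1 library; footprint sums at P42 lie below those at E15.5 in all 6 tissues, while poly(A) RNA sums separate the stages widely in liver, where they were 246 and 233 TPM at P42 and 30841 and 40685 TPM at E15.5.

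A member was tested between stages in a tissue when it reached 1 TPM in 2 or more libraries of an assay and on average in that tissue, and called at a limma adjusted p below 0.05 with a log2(TPM + 1) difference of at least 1. By footprints 60 members were tested in some tissue; the 7 that were not are Hist1h2ao, Hist1h2bq, Hist1h2br, Hist2h2aa1, Hist2h2aa2, Hist2h3c1 and Hist2h3c2, none above 3.79 TPM in any library. In brain 56 of 60 tested members fell, against 17.7% of all tested genes, and 3 rose (20.2% of all genes). Retina had 56 of 58 lower (16.2% of all genes) and 0 higher (21.3%). In heart, where 50.6% of all genes fell and 10.2% rose, 57 members fell and 3 rose among 60. Kidney had 57 lower and 1 higher of 60, against 40.2% lower and 12.2% higher among all genes. In liver 59 of 60 fell and 0 rose, beside 44% and 10.2% of all genes. Lung had 57 lower and 1 higher of 60, with 22.8% and 18.6% of all genes. The median log2 difference was -6.64 for the tested members in liver, against -0.85 for all tested genes, -4.85 against 0.08 in retina and -4.77 against -0.74 in kidney. It was -4.08 against -0.01 in brain, -3.70 against -0.21 in lung and -3.15 against -1.01 in heart. Members low at P42 can pass the minimum through E15.5 alone; with 1 TPM required at each stage, chosen after seeing the data, footprints fell for 55 of 56 in liver (40.2% of all genes), 57 of 60 in kidney (36.9%), 57 of 60 in lung (21.9%), 57 of 59 in heart (54%), 56 of 59 in brain (15.3%) and 50 of 52 in retina (13.8%). With the first minimum, 56 of the 58 members tested in all 6 tissues fell in each of them, among them every tested H3 (10) and H4 (13) member. Of all genes, at most the 1940 that fell in retina (16.2% of 11974) can have fallen in all 6.

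Among the H1 genes, which encode the linker histones, Hist1h1a and Hist1h1b carried the highest E15.5 footprints. Hist1h1b in retina was at 16.2 and 13.2 TPM at P42, against 3351 and 2673 TPM at E15.5, a log2 difference of -7.58 ± 0.30 (SE; adjusted p = 2.77e-13). Hist1h1a in liver was at 14.9 and 17.5 TPM at P42, against 4798 and 5368 TPM at E15.5 (-8.21 ± 0.31). The stages are far apart and the replicates close for both. Hist1h1c, which encodes the H1.2 subtype, fell less: in lung it was at 327 and 287 TPM at P42, against 1113 and 1139 TPM at E15.5 (-1.88 ± 0.31), and its differences lay between -5.72 and -1.88 over the tissues. Hist1h1e had differences between -5.75 and -2.10, and Hist1h1d between -6.39 and -3.58. The ratio of summed H1 footprints, P42 over E15.5, was lowest in liver (0.00895) and highest in heart (0.131).

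The H2A genes gave 14 of 15 tested members lower in brain, heart, kidney and lung, 15 of 15 in liver and 14 of 14 in retina. The exception outside liver and retina was the testis form Hist1h2aa. Hist2h2ac had differences between -6.01 and -3.03, Hist1h2ak between -7.82 and -3.91 and Hist1h2ab between -7.40 and -3.08. For Hist1h2af they lay between -8.33 and -3.78, for Hist1h2ah between -8.10 and -3.72, for Hist1h2an between -7.70 and -4.66 and for Hist1h2ap between -7.60 and -2.72. Those last 4 have 5.68 to 10.7% of their windows to themselves and may share reads with each other or with further copies. Hist3h2a, which lies apart from the large clusters, fell least in retina, at 49.2 and 61.4 TPM at P42, against 227 and 228 TPM at E15.5 (-2.03 ± 0.33), and most in liver, at 4.02 and 5.10 TPM at P42, against 319 and 315 TPM at E15.5 (-5.84 ± 0.33).

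Hist2h2bb, an H2B gene, had the highest footprint level of all members at E15.5 in each of the 6 tissues, 13.3 to 24.3% of the members' mean sum. In kidney it was at 159.9 and 119 TPM at P42, against 10249 and 10773 TPM at E15.5, a difference of -6.24 ± 0.36 (adjusted p = 8.75e-11). It remained at 303 to 335 TPM in P42 brain and was the highest member there too. All of its windows recur in transcripts of other genes, which include the 2 genes whose exons overlap it. How much of its sequence is shared with other H2B copies was not worked out, so its own level is uncertain. Hist1h2bj was between -7.99 and -3.08, Hist1h2bg between -6.56 and -3.70 and Hist1h2bf between -6.47 and -3.27 over the tissues. Hist1h2bb, Hist1h2bm, Hist1h2bn and Hist1h2bh also fell in all tissues, with differences between -6.21 and -2.52, -8.00 and -2.51, -7.93 and -3.36, and -6.94 and -3.38 in that order. Hist2h2be is the H2B member whose footprints moved least: in retina it was at 2.11 and 2.66 TPM at P42, against 2.71 and 4.04 TPM at E15.5, in lung at 3.22 and 1.37 TPM at P42, against 2.37 and 2.77 TPM at E15.5, and neither was called. In heart its footprints were at 1.40 and 1.45 TPM at P42, against 3.57 and 4.16 TPM at E15.5 and passed the threshold of 1 narrowly, but the difference became 0.0131 when differences were centred on the median gene, and the call was lost without E15.5 replicate 2 or P42 replicate 1.

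For H3, Hist1h3b in retina was at 0.502 and 0.726 TPM at P42, against 1034 and 777 TPM at E15.5, the largest fall of any member in that tissue (-9.12 ± 0.37). In P42 heart, by contrast, it was 40.1 and 12.6 TPM. Hist2h3b, whose windows all recur in transcripts of other genes, was at 3.29 and 2.92 TPM at P42, against 873 and 982 TPM at E15.5 in liver (-7.82 ± 0.33). Differences of Hist1h3c, Hist1h3d, Hist1h3f, Hist1h3g, Hist1h3h and Hist1h3i lay between -7.90 and -4.57, -6.63 and -4.22, -7.00 and -2.75, -7.67 and -4.19, -7.61 and -2.08, and -7.49 and -3.41 in that order. Hist2h3c1 and Hist2h3c2 had at most 0.149 TPM of footprints in any library and were not tested.

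The highest member by footprints in P42 retina, kidney, liver and lung was an H4 gene. In retina Hist1h4c was at 508 and 469 TPM at P42, against 2003 and 1785 TPM at E15.5 (-1.95 ± 0.45; adjusted p = 0.00104), and in kidney at 206 and 247 TPM at P42, against 693 and 595 TPM at E15.5 (-1.50 ± 0.45). Hist1h4h in kidney was at 248 and 332 TPM at P42, against 1178 and 1069 TPM at E15.5 (-1.97 ± 0.47). Hist1h4d in lung was at 442 and 359 TPM at P42, against 1376 and 1419 TPM at E15.5 (-1.81 ± 0.42). Each of these falls was smaller than the median fall of the members in its tissue, and the stages still do not overlap. Hist1h4b, Hist1h4f, Hist1h4k and Hist1h4m lay between -5.87 and -3.58, -6.90 and -3.44, -6.49 and -2.88, and -6.65 and -2.64. H4 took 52.2% of the members' summed footprints in P42 retina, against 26.5% in E15.5 retina. In brain it took 39.1% at P42 and 27.5% at E15.5, in liver 38.6% and 18.9%, and in heart 18.4% and 28.3%. Heart was the tissue in which the H4 share was lower at P42, and there the testis form Hist1h2ba alone held 27.6% of the P42 sum.

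**Figure D2:**
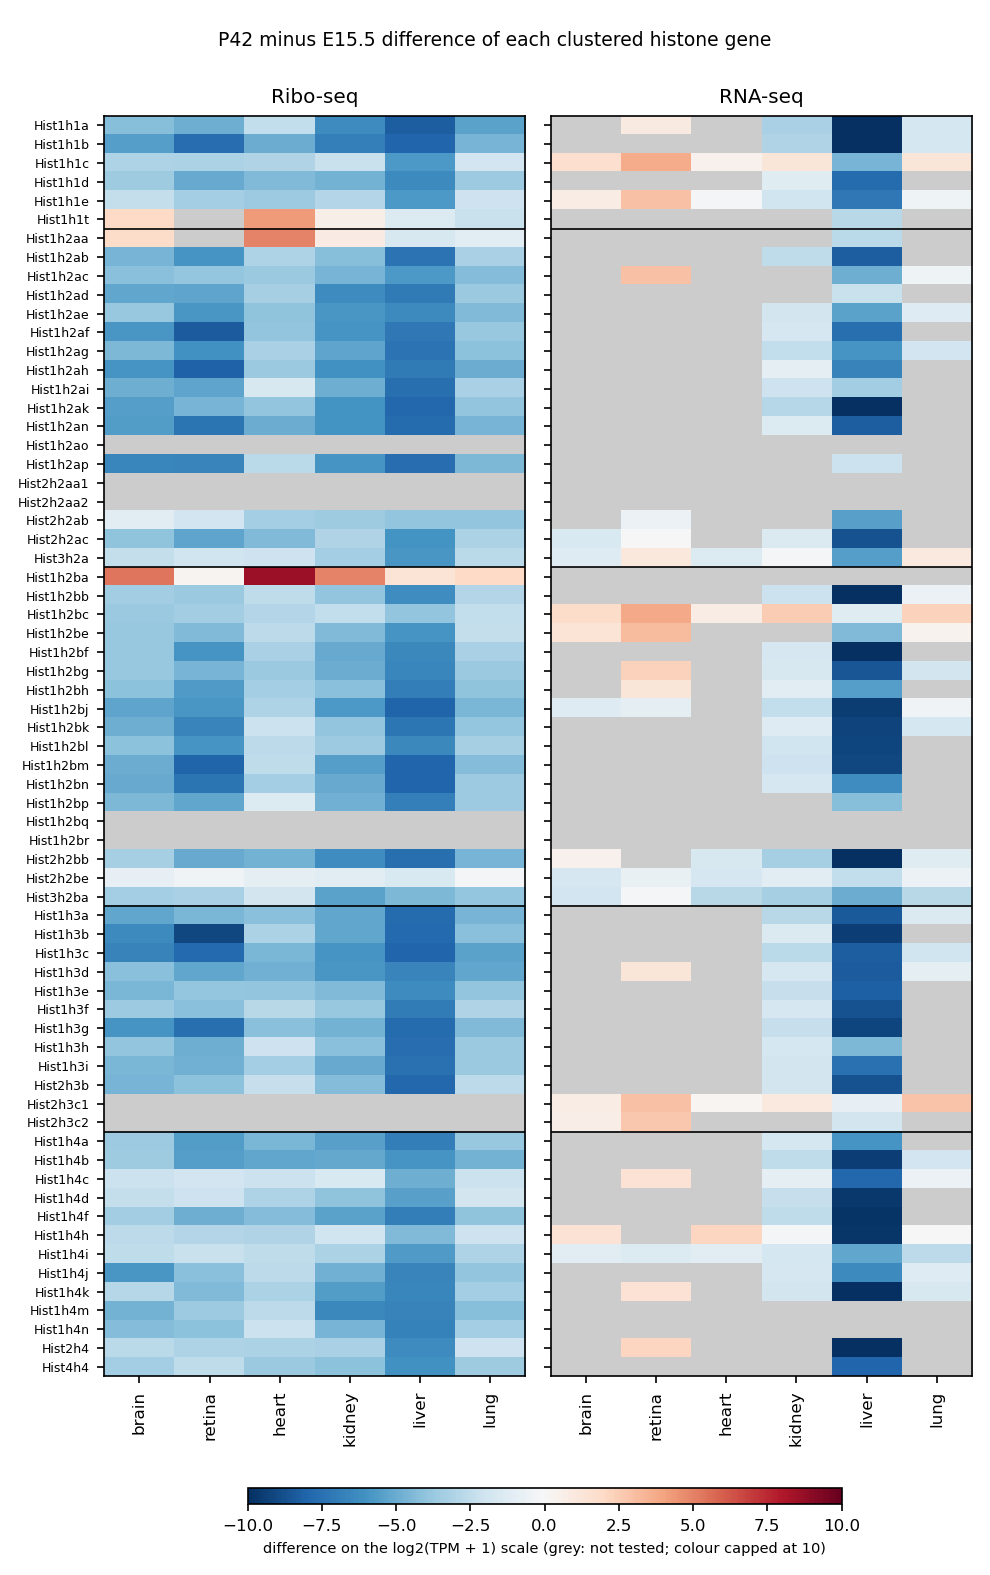
Log2(TPM + 1) difference, P42 minus E15.5, of each member (rows, by histone type) in each tissue (columns), by Ribo-seq at the left and RNA-seq at the right; grey cells were not tested and the colour scale stops at a difference of 10. By Ribo-seq 56 members were lower in all 6 tissues, and 16.2 to 50.6% of all genes fell per tissue. By RNA-seq 58 of 59 tested members were lower in liver (47% of all genes) and 14 of 21 were higher in retina (18.6%). Most of the 59 passed the minimum of 1 TPM through E15.5 alone, and several of the 14 through P42 alone. Counts with 1 TPM at each stage are given in the text.

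By poly(A) RNA-seq the members did not move as a block. Their summed mRNA was 788 and 936 TPM in P42 retina, against 435 and 324 TPM in E15.5 retina. Lung had 371 and 311 TPM at P42 and 214 and 212 TPM at E15.5. In brain, by contrast, it was 273 and 266 TPM at P42, against 492 and 519 TPM at E15.5. Heart had 140.1 and 122 TPM at P42 and 167 and 167 TPM at E15.5. In kidney the sums were 334 and 345 TPM at P42, against 275 and 562 TPM at E15.5, so the stages overlap. In liver they were 246 and 233 TPM at P42, against 30841 and 40685 TPM at E15.5, a ratio of means of 149. A few members made up most of each low sum: the 5 highest held 84.2 to 95.9% of the members' mRNA in the P42 tissues, while in E15.5 liver they held 41.9%.

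By mRNA 59 members were tested in some tissue; the 8 that were not are Hist1h2ao, Hist1h2ba, Hist1h2bq, Hist1h2br, Hist1h4m, Hist1h4n, Hist2h2aa1 and Hist2h2aa2, none above 2.49 TPM in any library. In liver 58 of 59 tested members fell by mRNA and 0 rose, beside 47% and 13.4% of all genes, with a median difference of -7.83 against -0.89 for all genes. Most of the 59 passed the minimum through E15.5 alone. Of the 8 that reached 1 TPM at each stage, 7 fell and 0 rose (40.6% and 13.6% of all genes). Hist2h2bb was at 0 and 0 TPM at P42, against 4963 and 4975 TPM at E15.5, the widest gap of any member. Hist1h1a was at 0 and 0.0566 TPM at P42, against 3023 and 3738 TPM at E15.5 (-11.68 ± 0.52). Hist1h1b was at 0.127 and 0.0564 TPM at P42, against 2448 and 3234 TPM at E15.5 (-11.33 ± 0.53). In E15.5 liver 53 members averaged at least 10 TPM, whereas brain, retina and lung had 6 each and heart 5. Kidney had 6 in replicate 1 and 19 in replicate 2. The H2B gene Hist1h2bf was at 0 and 0 TPM at P42, against 1341 and 1984 TPM at E15.5. Among the H4 genes, Hist1h4k fell with a difference of -10.15 ± 0.45 and Hist2h4 with -9.94 ± 0.33. The smallest called fall was that of Hist1h2bc, at 165 and 147 TPM at P42, against 309.5 and 426 TPM at E15.5 (-1.22 ± 0.18; adjusted p = 2.78e-06). Hist2h3c1 was the member not called, at 5.43 and 3.56 TPM at P42, against 11.7 and 6.02 TPM at E15.5. Summed mRNA of 8 erythroid genes, among them the globins Hbb-bt and Hba-a1, moved with the stage in liver: 287 and 198 TPM at P42, against 26818 and 29476 TPM at E15.5, when the other E15.5 tissues had 80.1 to 2910 TPM. All 8 were at 1 TPM or above in both E15.5 liver libraries, all 8 fell in liver, and their part in the histone difference was not tested. The E15.5 liver RNA-seq libraries also stand apart in other measures. Listed genes held 69.7 and 67.3% of their TPM total, against 90.99 and 89.2% in P42 liver, and only E15.5 kidney replicate 2 was lower. Mitochondrially encoded genes held 0.859 and 0.341%, against 12.4 and 9.03% in P42 liver and at least 4.72% in the RNA-seq libraries of the other tissues. With those genes left out, 58 members again fell in liver; the part of the listed share was not tested.

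In kidney 41 of 48 tested members fell by mRNA and 2 rose, against 43.9% and 13.1% of all genes. This count rests on E15.5 replicate 2, since without that library 7 members fell. With 1 TPM required at each stage, 3 of 9 fell and 2 rose (39.2% and 13.1% of all genes), and without the library 3 of 8 fell and 3 rose (50.7% and 10.2%). The E15.5 replicates stand apart in many members: Hist1h1a was at 0.0641 and 0.0665 TPM at P42, against 2.57 and 28.9 TPM at E15.5, and Hist1h4d at 0.0418 and 0.433 TPM at P42, against 1.26 and 15.8 TPM at E15.5. Hist3h2ba was high in both E15.5 replicates, at 2.48 and 3.05 TPM at P42, against 45.6 and 29.4 TPM at E15.5 (-3.33 ± 0.26). Centred on the median gene, 24 members fell in kidney, and the share of all genes so centred is not given here.

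Brain and heart gave few mRNA calls. In brain 5 of 14 tested members fell and 4 rose (36% and 11.7% of all genes), and 2 or 1 fell when differences were centred on the median gene or scaled by median of ratios. Hist3h2ba was the highest brain member at both stages, at 67.3 and 78.2 TPM at P42, against 278 and 286 TPM at E15.5 (-1.94 ± 0.26), and Hist3h2a was at 50.9 and 54.3 TPM at P42, against 120.4 and 134 TPM at E15.5 (-1.26 ± 0.19). With 1 TPM required at each stage, 4 of 9 fell and 2 rose (34.5% and 10.5% of all genes). In heart 5 of 10 fell and 1 rose, where 74.6% of all genes fell and 2.73% rose. With 1 TPM at each stage, 3 of 6 fell and 1 rose (72.3% and 2.51% of all genes). The heart counts depend on the scaling: 5 members rose after centring on the median gene and 6 by median of ratios. Shares of all genes under these scalings are not given here, for heart or for brain. For the falls, 1 member fell after centring on the median gene or median-of-ratios scaling, and Hist1h4i and Hist3h2a, with differences of -1.15 and -1.36, then had 0.46 and 0.25 after centring and 0.52 and 0.56 by median of ratios. Hist3h2ba, the heart member that fell most, was at 0.876 and 0.805 TPM at P42, against 12.6 and 10.9 TPM at E15.5 (-2.79 ± 0.26).

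Lung had 13 members lower and 3 higher of 27 tested, against 53.5% and 10.1% of all genes. With 1 TPM at each stage, 2 of 11 fell and 3 rose (52.8% and 8.05% of all genes). The lung falls numbered 2 after centring on the median gene and 3 by median of ratios, and 8 to 16 when a library was left out, with 8 without E15.5 replicate 1. For these runs no share of all genes is given here. Hist1h4i fell in lung to 3.43 and 2.35 TPM at P42, against 24.5 and 22.1 TPM at E15.5 (-2.65 ± 0.23). With TPM as deposited it was the only member called lower by mRNA in all 6 tissues. Its brain difference, -1.02, passed the threshold of 1 narrowly. In heart its difference of -1.15 was a smaller fall than the median of all genes, -1.61, and reversed after centring. The 3 lung members called higher were Hist1h2bc, Hist1h1c and Hist2h3c1. The number of rises in lung was 2 to 5 when a library was left out, with 2 without P42 replicate 1 and 5 without E15.5 replicate 2.

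Retina stood apart by mRNA. There 14 of 21 tested members rose and 1 fell, against 18.6% and 24.7% of all genes, with a median of 1.41 against -0.23. Several of the 14 passed the minimum through P42 alone: with 1 TPM at each stage, 1 of 10 fell and 6 rose (24% and 15% of all genes). The 14 came from all 5 types: 2 H1, 2 H2A, 4 H2B, 3 H3 and 3 H4. Hist1h2bc was at 211 and 242 TPM at P42, against 14.9 and 16.01 TPM at E15.5 (3.78 ± 0.18; adjusted p = 2.67e-14). Hist1h1c was at 136 and 152 TPM at P42, against 10.7 and 9.64 TPM at E15.5 (3.70 ± 0.19; adjusted p = 4.43e-14). In neither gene did a replicate of one stage come near the other stage. Hist2h3c1 was at 52.02 and 46.1 TPM at P42, against 4.42 and 6.69 TPM at E15.5 (2.95 ± 0.24), and Hist2h3c2 at 13.95 and 14.3 TPM at P42, against 0.951 and 1.78 TPM at E15.5 (2.70 ± 0.28). Hist1h1e was at 16.3 and 13.1 TPM at P42, against 1.08 and 1.02 TPM at E15.5 (2.93 ± 0.47), and Hist1h2be, whose exons overlap Hist1h1e on the same strand, at 14.9 and 15.1 TPM at P42, against 0.907 and 0.709 TPM at E15.5 (3.15 ± 0.16). Hist1h2ac rose by 2.90 ± 0.14, Hist1h2bg by 2.30 ± 0.23 and Hist2h4 by 2.11 ± 0.33 on the log2 scale. Hist3h2a was at 141 and 172 TPM at P42, against 78.4 and 66.9 TPM at E15.5 (1.09 ± 0.19). The retinal member that fell was Hist1h4i, at 16.7 and 22.01 TPM at P42, against 55.8 and 45.9 TPM at E15.5 (-1.35 ± 0.23). Hist3h2ba, at 113 and 187 TPM at P42, against 203 and 116 TPM at E15.5, had overlapping stages and was not called.

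Hist1h1c and Hist1h2bc were the members whose mRNA rose in most tissues: both rose in brain, retina, kidney and lung, neither was called in heart, and both fell in liver. In kidney Hist1h2bc was at 213 and 209.7 TPM at P42, against 40.2 and 30.8 TPM at E15.5 (2.55 ± 0.18). In lung it was at 182 and 179.5 TPM at P42, against 33.3 and 36.6 TPM at E15.5 (2.34 ± 0.18). Hist1h2bc was the highest member by mRNA in P42 retina, kidney, liver and lung, with 26.2 to 65.2% of the members' sum. Hist1h1c in kidney was at 62.9 and 76.03 TPM at P42, against 28.3 and 31.04 TPM at E15.5 (1.20 ± 0.19), and in heart at 50.3 and 42.1 TPM at P42, against 37.1 and 32.7 TPM at E15.5 (0.39). Hist1h4h, an H4 gene, rose in heart and brain: in heart it was at 13.996 and 14.6 TPM at P42, against 2.60 and 2.39 TPM at E15.5 (2.13 ± 0.45), and in brain at 3.65 and 3.87 TPM at P42, against 0.470 and 1.01 TPM at E15.5 (1.47 ± 0.45). Hist1h2be in brain was at 3.86 and 3.52 TPM at P42, against 0.869 and 0.770 TPM at E15.5 (1.37 ± 0.16). Over the tissues 15 members rose somewhere by mRNA.

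**Figure D3:**
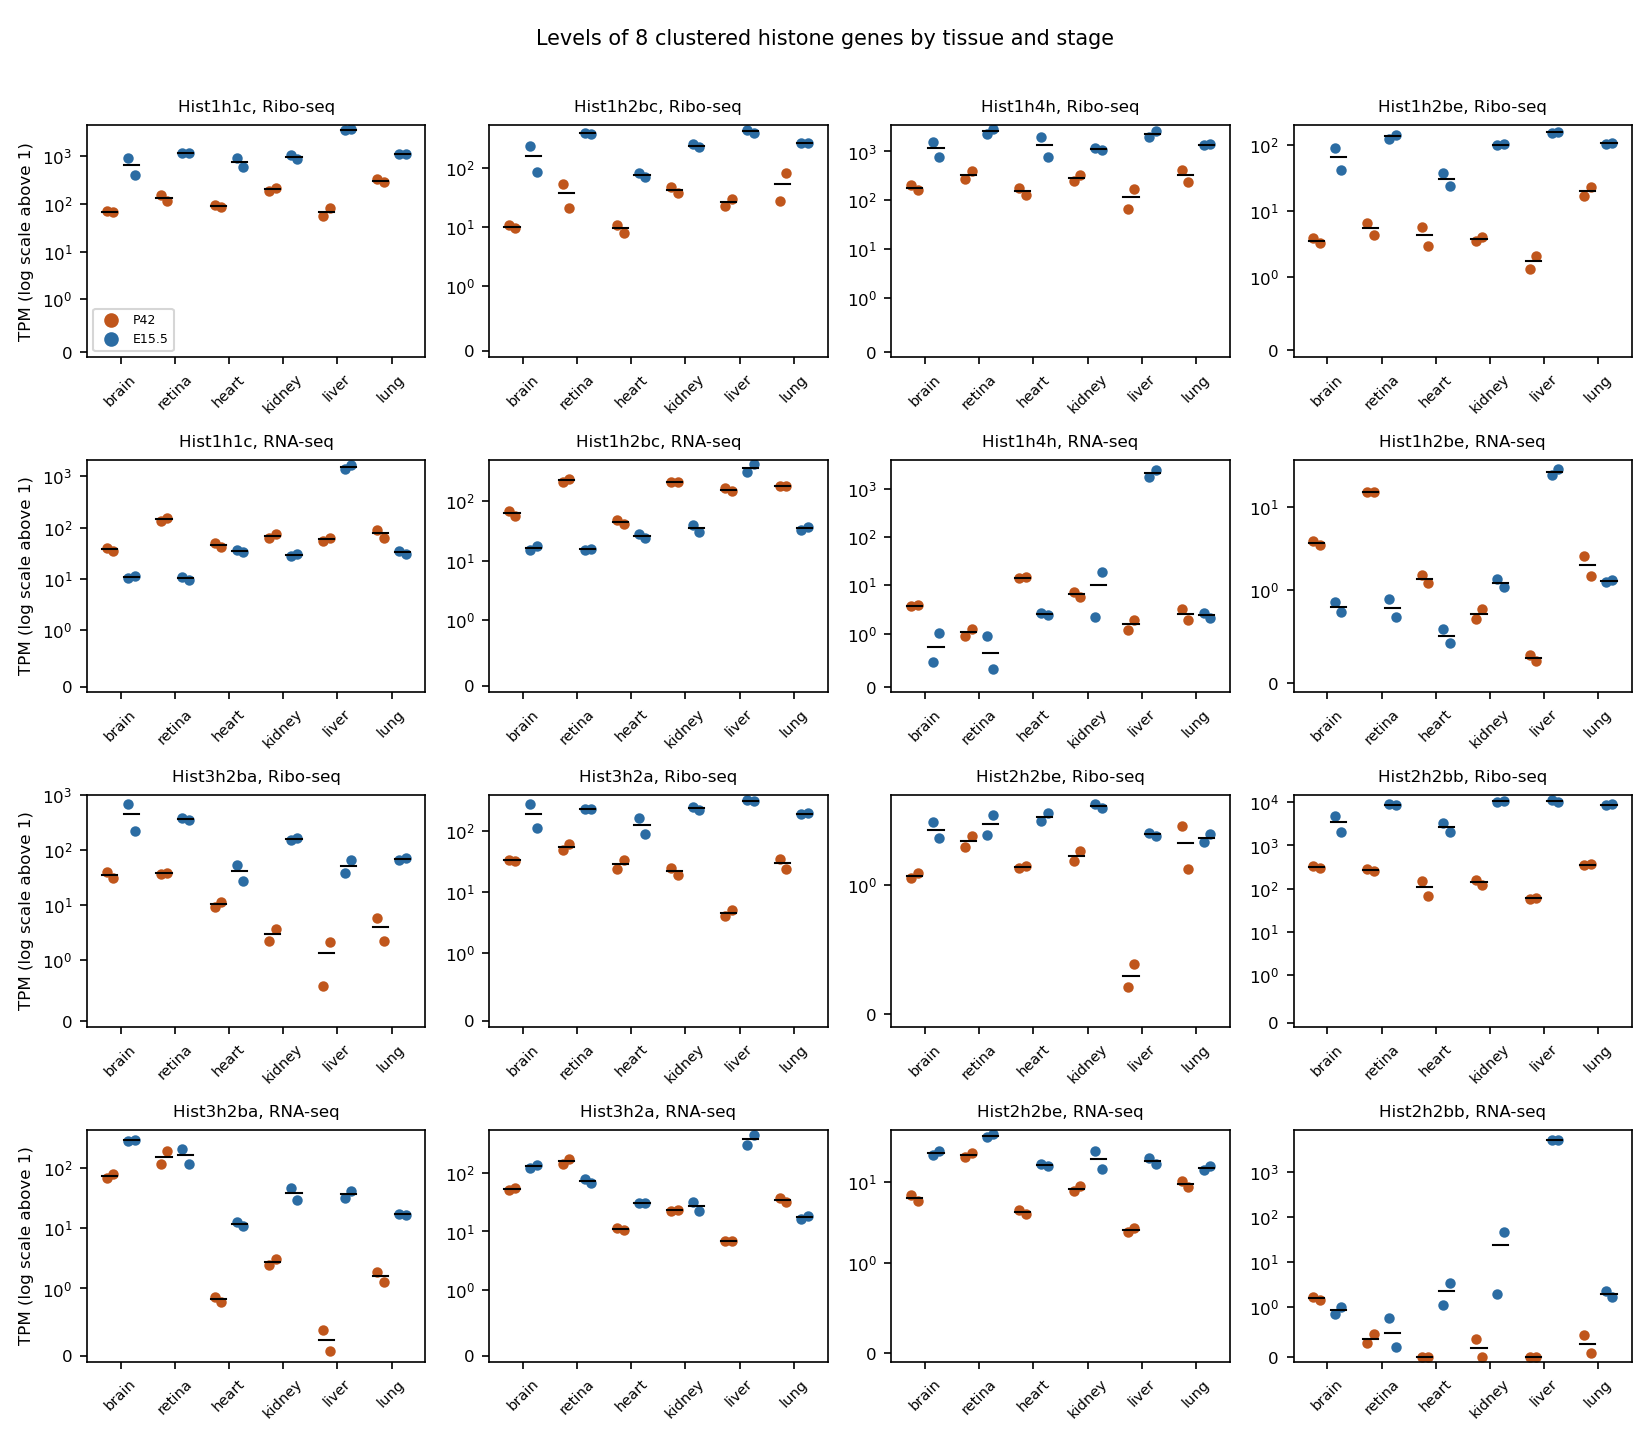
TPM (log axis) of 8 members in each library of the 6 tissues, P42 left of E15.5, with Ribo-seq in the upper panels and RNA-seq in the lower ones. In retina Hist1h1c and Hist1h2bc are higher at P42 by RNA-seq (136 and 152, and 211 and 242 TPM) and lower at P42 by Ribo-seq (156 and 115, and 53.0 and 20.6 TPM).

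The assays disagreed in direction for a set of members within the same tissue. In retina 12 of the 19 members tested by both assays were higher at P42 by mRNA and lower by footprint, against 0.16% of the genes tested by both, so that the 12 are among 19 genes with that pattern. They were Hist1h1c, Hist1h1e, Hist1h2ac, Hist1h2bc, Hist1h2be, Hist1h2bg, Hist1h2bh, Hist1h3d, Hist1h4c, Hist1h4k, Hist2h4 and Hist3h2a. Most of the 12, such as Hist1h2be, passed the mRNA minimum through P42 alone. Of the 12, only Hist1h1c, Hist1h1e, Hist1h2bc and Hist3h2a averaged 1 TPM of mRNA at each stage. Opposed counts among all genes were not made with 1 TPM at each stage. With that minimum fewer members rose by mRNA in retina and brain, as given above. Retinal footprints of Hist1h1c were 156 and 115 TPM at P42, against 1188 and 1189.8 TPM at E15.5 (-3.14 ± 0.31), and those of Hist1h2bc 52.97 and 20.6 TPM at P42, against 390.0 and 376 TPM at E15.5 (-3.49 ± 0.46). In brain it was 4 of 12 members (Hist1h1c, Hist1h2bc, Hist1h2be and Hist1h4h), against 0.0849% of genes. Hist1h2be and Hist1h4h averaged under 1 TPM of mRNA in E15.5 brain. In heart it was 1 of 9 (Hist1h4h, 0.00871% of genes). It was 4 after centring (10 of 11484 genes) or by median of ratios (22 of 11837). Hist1h1c and Hist1h2bc made up the 2 of 47 in kidney (0.0472%) and the 2 of 26 in lung (0.0154%). In liver 0 were opposed (0.317% of genes) and 57 of 57 were lower by both assays, against 35.1% of genes. Most of the 57 passed the mRNA minimum through E15.5 alone, so for them the minimum itself favours a fall by mRNA. No member was higher at P42 by both assays in any of the 6 tissues. After centring on the median gene, opposed members numbered 12 of 19 in retina (21 of 11849 genes), 5 of 12 in brain (24 of 12954) and 5 of 26 in lung (22 of 12960). By median of ratios they numbered 8 of 11 in retina (17 of 11911 genes), 4 of 11 in brain (19 of 12425) and 4 of 13 in lung (18 of 12466). Both scalings left 2 in kidney (9 and 10 of all genes) and 0 in liver (40 and 43), and this check was added after seeing the data. It keeps the first minimum, so members that pass through P42 alone remain in its counts.

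The footprint-to-mRNA ratio was compared between stages for members with at least 5 TPM of mRNA at each stage and, added after seeing the data, 1 TPM of footprints on average in the tissue. That left 28 member and tissue combinations of 7 members. Without the footprint minimum there was 1 more, Hist2h3c1 in retina, which has almost no footprints. The ratio was lower at P42 in 19 of the 28 and higher in 0. In brain 5 of 6 fell, against 2.24% of all tested genes, and in retina 4 of 6, against 1.7%. Heart had 2 of 3 (4.97% of all genes), kidney 3 of 6 (4.31%), liver 2 of 3 (19.7%) and lung 3 of 4 (1.2%). Among all genes the ratio was higher for 39.6% in lung, 27.8% in brain, 11.8% in retina, 10.6% in heart, 3.86% in liver and 2.01% in kidney. Hist1h1c and Hist1h2bc fell in all 6 tissues. For Hist1h1c the log2 ratio difference was -6.84 ± 0.36 in retina and -1.08 ± 0.36 in liver (adjusted p = 0.0226), and for Hist1h2bc -7.28 ± 0.51 in retina and -2.75 ± 0.51 in liver. Hist3h2a fell in brain, retina, kidney and lung, with -3.64 ± 0.39 in lung. Hist2h2be was not called in any of the 4 tissues where it was tested; its brain value was 0.85 ± 0.29. Since tail-less histone RNA is not in the denominator, the ratio is not a translation rate of all histone mRNA.

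The annotated 3′ end went along with the P42 mRNA level, as a description without a test. Of the 23 members with the hairpin and more than 100 annotated bases past it, 9 averaged at least 10 TPM of mRNA in some P42 tissue. They were Hist1h1c, Hist1h1e, Hist1h2ac, Hist1h2be, Hist1h4i, Hist2h3c1, Hist2h3c2, Hist3h2a and Hist3h2ba. Of the 23 whose annotation ends within 100 bases of the hairpin, 1 did (Hist1h4h), and of the 6 with no hairpin in their annotated 3′ end 2 did (Hist1h2bc and Hist2h2be). None of the 15 members with fewer than 20 annotated bases after the stop codon did. The medians of the highest P42 mRNA level were 2.48, 0.23, 1.37 and 0.218 TPM over these 4 sets in that order. For the highest E15.5 footprint the medians ran differently, at 453, 992, 210.1 and 1038 TPM. Long annotated ends usually rest on tailed transcripts that were sequenced, so the annotation and the mRNA level are not independent.

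Within a stage, footprints and mRNA were set against each other for members with at least 1 TPM by both assays in that group, a minimum chosen after seeing the data because in many groups most members reach 1 TPM by footprints and not by mRNA. The log2 difference of Ribo-seq minus RNA-seq was centred on the median of all genes so tested. As TPM divides footprints by all exonic bases, this difference also depends on how much of a gene's exons is coding. The part of that in the counts below was not tested. At P42 it was above that median by the calling rule for 13 of 20 in retina (11.4% of all genes), 6 of 10 in lung (14.5%), 6 of 12 in brain (14.5%), 4 of 7 in heart (11.5%), 3 of 8 in kidney (10.9%) and 1 of 4 in liver (11.3%). At E15.5 it was above for 44 of 57 in liver (12.2% of all genes), 50 of 52 in kidney (9.2%), 34 of 35 in lung (9.2%), 18 of 19 in heart (5.95%), 11 of 12 in brain (9.26%) and 10 of 11 in retina (8.8%). In E15.5 kidney without replicate 2 it was 34 of 36 above and 1 below (9.04% and 14%). The median centred difference of these members was 0.56 in P42 liver to 3.08 in P42 retina, with 0.78 in kidney, 1.03 in brain, 1.33 in heart and 1.78 in lung. At E15.5 it was 1.799 in liver, against 8.50 in lung, 7.35 in kidney, 7.30 in heart, 7.20 in retina and 6.47 in brain.

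Over the 12 groups 200 of 247 tests were above the median gene and 14 below it. The calls below were 2 in P42 retina (14.8%), 2 in P42 lung (16.7%), 1 in P42 brain (16.5%), 1 in P42 heart (15.1%), 1 in P42 kidney (14.5%) and 1 in P42 liver (15.1%). They were further 2 in E15.5 liver (13.8%), 1 in E15.5 kidney (13.7%), 1 in E15.5 heart (11.8%), 1 in E15.5 brain (12.2%), 1 in E15.5 retina (14.7%) and 0 in E15.5 lung (12.5%). All 14 came from 3 H2B genes, Hist2h2be, Hist1h2bc and Hist1h2bf, with 2192, 742 and 74 annotated bases after the stop codon in that order. Hist1h2bc was below the median gene in all 6 P42 tissues, with centred differences of -1.79 ± 0.36 in heart and -1.17 ± 0.36 in retina. Hist2h2be was below it in 7 groups, for example with -1.38 ± 0.21 in P42 lung, where it had 3.22 and 1.37 TPM of footprints and 10.3 and 8.68 TPM of mRNA. Hist1h2bf was below it in E15.5 liver (-1.02 ± 0.41).

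**Figure D4:**
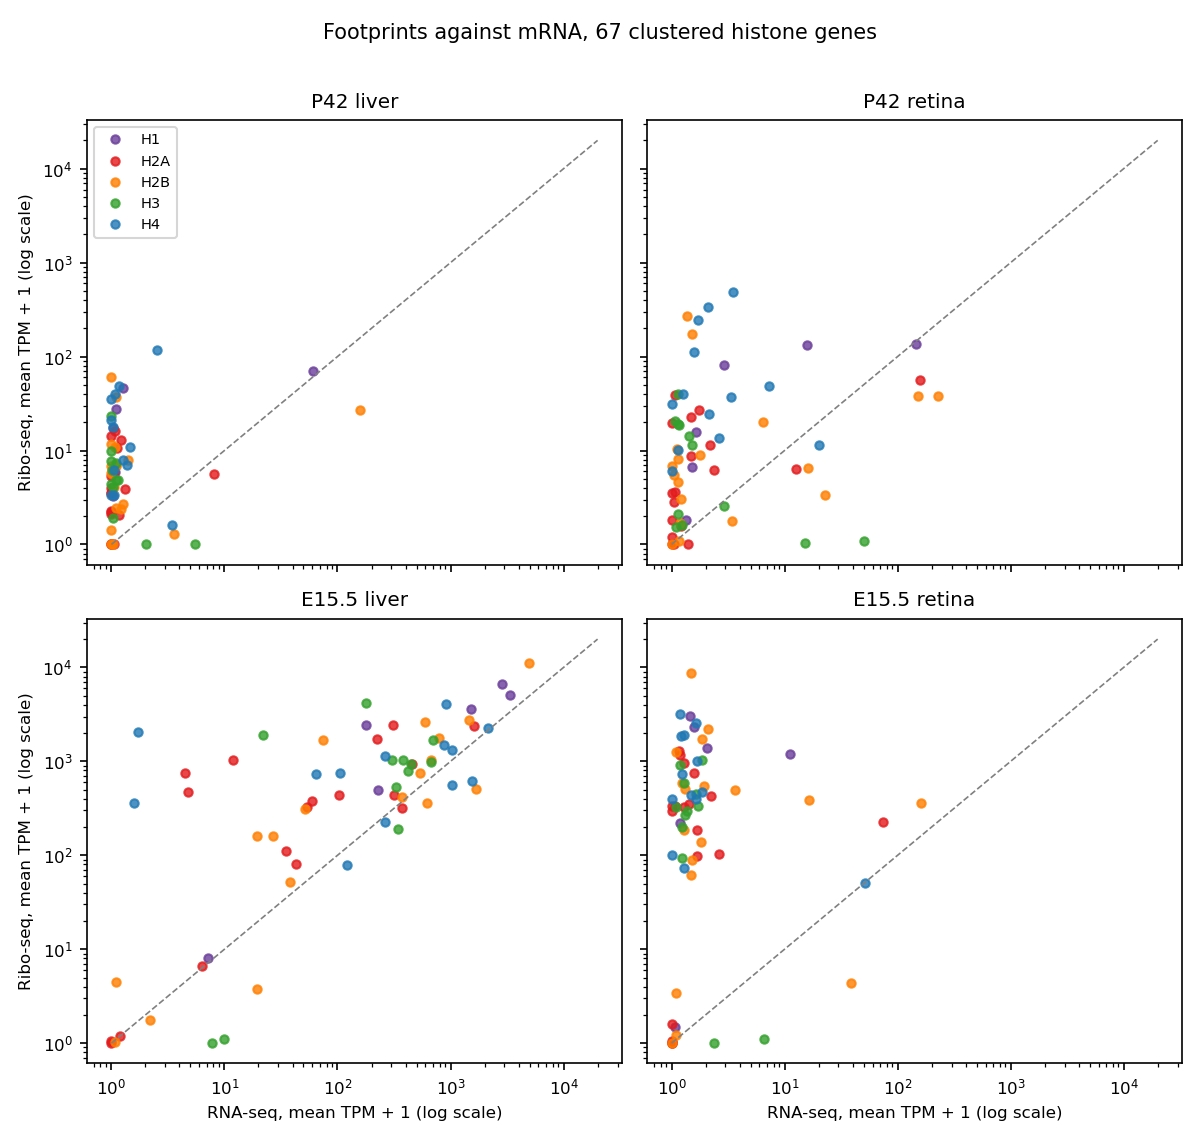
Mean Ribo-seq TPM + 1 (vertical) against mean RNA-seq TPM + 1 (horizontal), both on log axes, for each member in P42 liver and P42 retina (top) and E15.5 liver and E15.5 retina (bottom), coloured by histone type. Of the E15.5 groups shown, liver is the one where members lie nearer the diagonal, with a median centred Ribo-seq minus RNA-seq difference, over members with 1 TPM by both assays, of 1.799, against 7.20 in E15.5 retina.

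Between tissues, E15.5 liver had the most histone mRNA, as the sums above show. Its RNA-seq libraries also stand apart in their listed and mitochondrial shares, given above, and the part of these in the tissue differences was not tested. Each tissue was set against the mean of the other 5 over members with at least 1 TPM in all 6 tissues at that stage, a minimum chosen after seeing the data since many members reach 1 TPM of mRNA in some tissues only: by mean 60 did in E15.5 liver and 14 in E15.5 brain. That left 6 members by mRNA and 57 by footprints at E15.5. By mRNA E15.5 liver had 0 lower and 4 higher (40.8% and 6.71% of all genes): Hist1h1c (6.12 ± 0.14), Hist1h2bc (3.86 ± 0.14), Hist3h2a (3.07 ± 0.15) and Hist1h4i (2.63 ± 0.18). By footprints E15.5 liver had 1 lower and 39 higher (17.6% and 8.44% of all genes), with a median difference of 1.44. The liver excess by footprints was led by Hist2h3b (3.22 ± 0.26) and Hist1h3h (2.52 ± 0.21), both H3 genes. E15.5 heart had 40 lower and 0 higher (5.17% and 9.69%) by footprints, and 30 (6.93%) lower when liver was left out of that mean. Hist3h2ba mRNA at E15.5 was 3.03 ± 0.20 above the other tissues in brain and 1.99 ± 0.20 in retina.

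The other E15.5 tissues gave fewer footprint calls. Brain had 20 lower and 1 higher (10% and 11.1% of all genes), retina 1 and 9 (21.7% and 2.43%), kidney 0 and 1 (0.68% and 6.35%) and lung 0 and 4 (1.75% and 7.07%). With liver left out of the mean, brain had 12 (9.2%) lower and retina 20 (2.31%) higher. By mRNA brain had 3 lower and 2 higher (8.86% and 19.4%) of 6, retina 2 and 3 (7.08% and 17%), heart 3 and 0 (13.5% and 7.17%), kidney 1 and 0 (2.53% and 3.46%) and lung 2 and 0 (1.73% and 11.5%). The members lower in brain were Hist1h1c, Hist1h2bc and Hist1h4i, and those lower in retina Hist1h1c and Hist1h2bc. Without liver in the mean the lower counts were 2 (23.8%) in heart, 2 (4.02%) in lung, 1 (9.78%) in brain, 1 (7.69%) in retina and 0 (6.37%) in kidney. Leaving liver out of the mean was chosen after seeing the data.

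At P42, 7 members reached 1 TPM in all 6 tissues by mRNA and 49 by footprints. By mRNA P42 retina had 1 lower and 6 higher (8.1% and 51.2% of all genes), so that the higher share of all genes was large there too. The median was 1.77 for members and 1.03 for all genes. Hist2h3c1 (3.13 ± 0.18), Hist3h2a (2.88 ± 0.15) and Hist1h4i (2.13 ± 0.18) were furthest above the other tissues. Hist1h4h was the member that was lower, and it was the one higher in P42 heart, by 2.07 ± 0.35. By footprints P42 lung had 2 lower and 39 higher (5.41% and 22.7% of all genes), with a median of 1.37 against 0.45. With liver left out of the mean of the others, 32 (20.3%) of 52 were higher in lung. Hist1h1b in lung was 2.37 ± 0.23 above the others and Hist1h3b 2.26 ± 0.28. P42 lung also had the highest level of 4 lymphocyte genes, which summed to 114 and 51.1 TPM by footprints and 74.8 and 98.6 TPM by mRNA, against at most 10.05 TPM in the libraries of the other P42 tissues. Each of the 4 was at 1 TPM or above there; their part in the lung difference was not tested. P42 liver had 36 lower and 0 higher (35.4% and 6.91%) by footprints, brain 5 and 3 (7.62% and 29.4%), retina 9 and 7 (14.4% and 12.7%), heart 4 and 7 (31.9% and 4.2%) and kidney 2 and 1 (5.69% and 13%). Without liver in the mean the lower counts were 14 (7.57%) in brain, 9 (42.8%) in heart and 6 (11.1%) in kidney. By mRNA brain had 1 lower and 1 higher (7.07% and 28.3%), heart 3 and 1 (63.5% and 3.66%), kidney 0 and 0 (5.61% and 14.3%), liver 3 and 0 (36.3% and 7.37%) and lung 0 and 0 (12.3% and 15.4%).

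The change between stages was compared between tissues as the P42 minus E15.5 difference of one tissue minus the mean of that difference over the other 5, again over members with a mean of at least 1 TPM in every tissue. By footprints, with 58 members, liver had 52 lower and 0 higher (23.9% and 5.47% of all genes), heart 0 and 38 (31.5% and 2.91%), lung 1 and 26 (4.73% and 13.8%), brain 0 and 10 (3.33% and 24.4%), retina 17 and 6 (4.06% and 29.8%) and kidney 5 and 3 (12.4% and 6.64%). By mRNA, with 8 members, liver had 8 lower and 0 higher (16.5% and 18.6%), retina 0 and 7 (6.49% and 35.9%), brain 0 and 3 (5.74% and 18%), heart 2 and 1 (39.6% and 1.13%), lung 0 and 2 (19.7% and 6.99%) and kidney 0 and 1 (7.53% and 13.9%). The 8 were Hist1h1c, Hist1h1e, Hist1h2bc, Hist1h4i, Hist2h2be, Hist2h3c1, Hist3h2a and Hist3h2ba, and those higher in retina were all but Hist2h2be. With liver left out of the mean of the others, which was chosen after seeing the data, the mRNA counts were 0 lower and 6 higher (5.56% and 37%) in retina, 1 and 0 (5.66% and 19.1%) in brain, 4 and 0 (41.2% and 1.5%) in heart, 1 and 2 (20.8% and 7.46%) in lung and 2 and 0 (10.2% and 15.3%) in kidney. In kidney without E15.5 replicate 2 they were 1 and 0 (13.1% and 8.19%) with liver in the mean and 1 and 0 (16.3% and 9.47%) without it. By footprints the counts without liver were 0 and 28 (37.9% and 2.65%) in heart, 2 and 10 (5.89% and 12%) in lung, 3 and 6 (3.92% and 20.7%) in brain, 25 and 2 (4.51% and 26.8%) in retina and 17 and 1 (19.8% and 6.49%) in kidney.

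Hist1h1t, Hist1h2aa and Hist1h2ba encode the testis forms of H1, H2A and H2B and are replaced during sperm formation. They were the only members whose footprints rose at P42. In heart Hist1h2ba was at 412 and 1101 TPM at P42, against 0.691 and 0.967 TPM at E15.5 (8.53 ± 0.81; adjusted p = 5.63e-08), Hist1h1t at 69.5 and 172 TPM at P42, against 5.52 and 4.14 TPM at E15.5 (4.25 ± 0.43) and Hist1h2aa at 68.2 and 142 TPM at P42, against 0.680 and 5.24 TPM at E15.5 (4.94 ± 0.66). All P42 heart values lie above all E15.5 heart values, and replicate 2 was the higher P42 library for each. In brain Hist1h2ba was at 51.8 and 50.6 TPM at P42, against 0 and 0.570 TPM at E15.5 (5.38 ± 0.81), and in kidney at 79.8 and 50.6 TPM at P42, against 1.93 and 0.465 TPM at E15.5 (4.96 ± 0.81). In lung it was at 30.4 and 1.51 TPM at P42, against 2.14 and 0.671 TPM at E15.5; only P42 replicate 1 stood above E15.5, and the call (adjusted p = 0.0435) was lost without any of the other libraries but P42 replicate 2, with the pseudocounts 0.25 and 4 and with no filter. By mRNA Hist1h2ba did not exceed 0.554 TPM in any library. Footprints of 9 spermatid genes, a list added after these values were seen, were high in the same libraries: they summed to 720.1 and 1725 TPM in P42 heart, 101 and 67.01 TPM in P42 brain, 114 and 77.7 TPM in P42 kidney, 45.9 and 3.91 TPM in P42 lung, 14.99 and 19.8 TPM in P42 liver and 0.947 and 7.31 TPM in P42 retina. All 9 were at 1 TPM or above in the P42 heart, brain and kidney Ribo-seq libraries. At E15.5 the footprint sum was at most 5.12 TPM, and by RNA-seq it was at most 7.68 TPM, in P42 kidney. Whether testis material is in these Ribo-seq libraries was not tested.

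**Figure D5:**
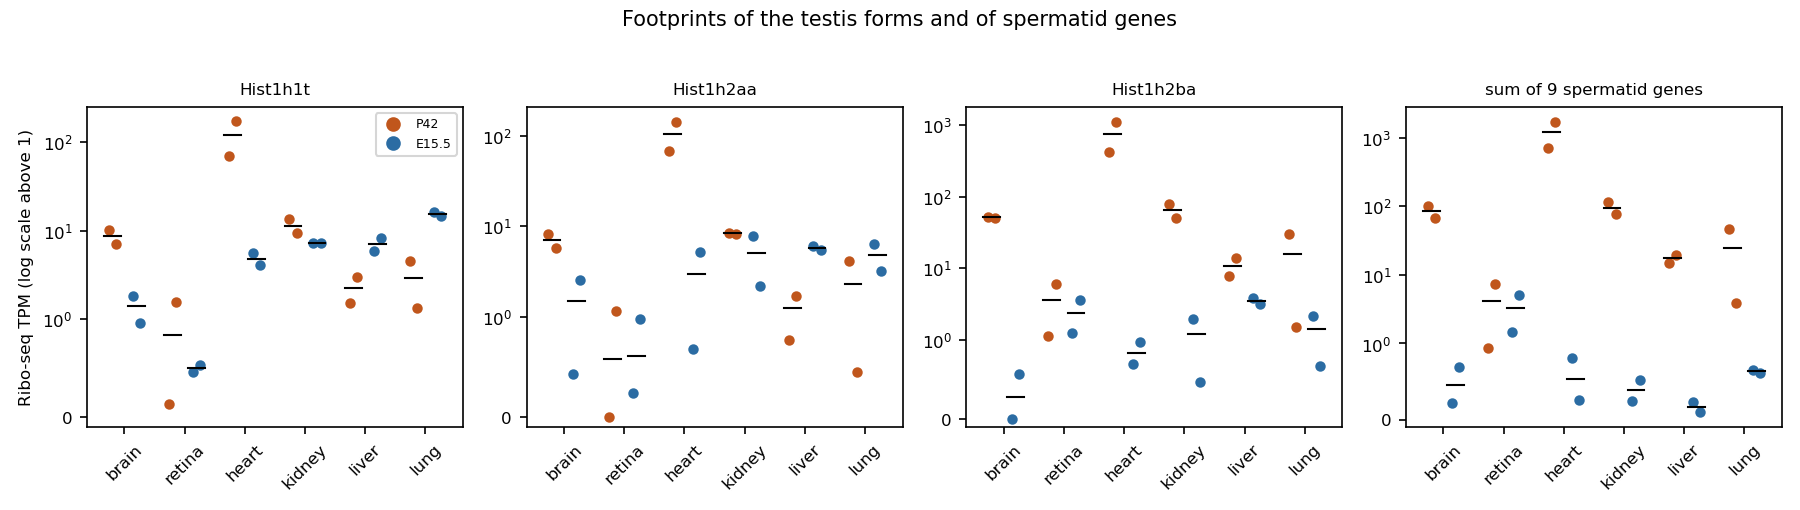
Ribo-seq TPM (log axis) of Hist1h1t, Hist1h2aa, Hist1h2ba and the sum of 9 spermatid genes in each library, by tissue, P42 left of E15.5. The P42 heart libraries are the highest in each panel, with 412 and 1101 TPM of Hist1h2ba and 720.1 and 1725 TPM of the spermatid genes.

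Genes outside the clusters that serve the same pathway were read against the same shares of all genes. Slbp, whose product binds the stem-loop, fell in all 6 tissues by both assays, with log2 differences of -3.06 to -1.34 by mRNA. Its heart footprint difference of -1.02 is close to the median of all genes there, -1.01. In liver, the widest gap, its footprints were 3.72 and 5.25 TPM at P42, against 83.9 and 88.2 TPM at E15.5. Of the 19 genes of histone mRNA processing and transcription, footprints fell for 16 of 18 tested in heart, 15 of 17 in kidney, 14 of 17 in liver, 7 of 18 in lung, 3 of 18 in retina and 3 of 17 in brain. The retina and brain counts are near the share of all genes that fell there, 16.2% and 17.7%, and in heart that share was 50.6%. By mRNA 18 of 18 fell in heart, 17 of 18 in lung, 16 of 18 in kidney and in liver, 14 of 18 in brain and 7 of 19 in retina, against 74.6% of all genes in heart, 53.5% in lung, 43.9% in kidney, 47% in liver, 36% in brain and 24.7% in retina. None of them rose in any tissue. Casp8ap2, which organises the bodies where histone mRNA is made, Eri1, an exonuclease that acts on the stem-loop, and Cstf2, a cleavage factor, were the other processing genes with the largest mean falls (-3.53 to -1.67, -2.42 to -1.61 and -2.75 to -1.07 by mRNA). Of 21 histone chaperone genes, footprints fell for 20 in liver (44% of all genes), 19 in kidney (40.2%) and 19 of 20 tested in heart (50.6%). They fell for 13 in lung (22.8%), 10 in brain (17.7%) and 9 in retina (16.2%). By mRNA 21 fell in heart (74.6%), kidney (43.9%) and lung (53.5%), 19 in liver (47%) and brain (36%) and 14 in retina (24.7%). Asf1b, the H3-H4 chaperone of dividing cells, had differences of -5.38 to -2.60 by mRNA, Nasp, an H1 and H3-H4 chaperone, -4.12 to -2.17, and the chromatin assembly factor subunits Chaf1a and Chaf1b -5.12 to -1.95 and -4.77 to -2.93. Of 21 S-phase genes, 18 fell and 1 rose by footprints in brain (17.7% and 20.2% of all genes). By that assay 20 fell in retina (16.2%) and 21 in each other tissue (22.8 to 50.6%). By mRNA 20 fell in brain (36%) and in retina (24.7%) and 21 elsewhere (43.9 to 74.6%). In retina mRNA of Top2a, a topoisomerase of dividing cells, was at 0.0619 and 0.0581 TPM at P42, against 285 and 350.0 TPM at E15.5. In that tissue 14 clustered histone genes rose by the same assay, and 6 did with 1 TPM required at each stage. The mRNA differences over the tissues were -7.89 to -4.60 for the proliferation marker Mki67, -8.22 to -4.83 for Top2a, -7.35 to -3.63 for the ribonucleotide reductase subunit Rrm2 and -6.73 to -2.81 for the replicative helicase subunit Mcm5.

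Most replacement histones are made outside S phase from single genes with ordinary poly(A) tails. Whether this holds for each gene listed here was not checked. Of 11 tested, footprints fell for 11 in heart (50.6% of all genes), 10 in liver (44%) and brain (17.7%), 9 in kidney (40.2%) and lung (22.8%) and 7 in retina (16.2%). By mRNA 10 fell in heart (74.6%) and brain (36%), 9 in lung (53.5%), kidney (43.9%) and retina (24.7%) and 5 in liver (47%). The liver count by mRNA is near the share of all genes that fell there, 47%, and in heart that share was 74.6%. The mRNA differences of H3f3a and H3f3b, the H3.3 genes, were -2.71 to -1.05 and -2.57 to -0.32. Those of the H2A.Z genes H2afz and H2afv were -3.71 to -1.84 and -1.91 to 0.47, and of H2afx -4.40 to -1.08. H1f0, the linker histone of quiescent cells, had -3.15 to -0.11, H1fx -5.13 to -1.04, the macroH2A genes H2afy and H2afy2 -1.79 to -0.36 and -3.38 to -0.69, and the centromeric Cenpa -4.57 to -2.59. H2afj rose in kidney by mRNA, at 148 and 116 TPM at P42, against 49.2 and 32.03 TPM at E15.5.

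Over the 24 RNA-seq libraries, Hist1h1c and Hist1h2bc were each other's nearest gene by rank, with a Spearman rho of 0.936. By Pearson's r on log2(TPM + 1) the nearest were Htr2b to Hist1h1c (0.88) and Acbd4 to Hist1h2bc (0.876), and Hist1h1c stood at 0.847 with Hist1h2bc. Hist2h2be was nearest to Mynn by both measures, with r of 0.96 and rho of 0.944. These libraries share stages and tissues, so the coefficients describe the pattern and carry no p.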

How the data were processed

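Poly(A) RNA-seq and Ribo-seq libraries of 6 tissues at 2 stages were deposited as 4 tables of 12 libraries each. The deposited values are TPM per gene. Per the submitters' processing notes, CASAVA 1.8.2, cutadapt 1.8.1, TopHat2 2.0.14 and featureCounts 1.6.2 were used with GRCm38.p6; for multi-mapped reads, annotation release and strand the setting is not given in the sources used here. No read totals are given, so depth per library is unknown and no counting interval was made. Of 22055 genes, 21952 identifiers matched GENCODE M21.

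Groups were taken from the labels. TPM were used as deposited, and log2(TPM + 1) was fitted per assay with limma 3.58.1 (trend, R 4.3.3) over all 24 libraries, with 12 residual degrees of freedom, or over all 48 libraries, with 24, for the assay and ratio contrasts. Adjusted p-values are Benjamini-Hochberg over all tested genes. A call needs an adjusted p below 0.05 and a difference of at least 1 on the log2(TPM + 1) scale, which understates changes of low genes. Genes with at least 1 TPM in 2 libraries of the assay were fitted, and those with a mean of at least 1 TPM over the libraries compared were tested; the ratio needed a mean of 5 TPM of mRNA at each stage. Since that minimum lets in members high on one side alone, counts between tissues, between assays and for the ratio are given with 1 TPM on every side of the contrast (footprints for the ratio), and those between stages both ways; this was chosen after seeing the data. The Ribo-seq minus RNA-seq contrast was centred on the median tested gene. The fit was tested on simulated data. Sequences were searched with Python 3.11.15, numpy 2.4.6 and pandas 2.3.3, and plots drawn with matplotlib 3.10.9.

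The members, gene lists and tests were chosen with earlier results of these data known, and the spermatid list after its values were seen. Genes named with values are, per histone type, the 4 members highest by each assay, the 3 largest falls and rises in each tissue and assay, every member higher at P42 anywhere, members with at least 10 TPM of mRNA at P42, the testis forms, the replacement variants, Slbp and up to 4 genes of each other list; other names were chosen after their values were seen. Alternatives were other pseudocounts, filters, scalings, a replicate block, libraries of the tissue alone and each library left out.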

Additional observations from a re-analysis of the deposited data

Results flagged for a closer look

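The difference between tissues in the change between stages, tested with limma as described above over members with 1 TPM in every tissue, is the reason each of these counts of members is given here, with the share of all genes in parentheses. By Ribo-seq, of 58 members, the change was lower for 52 in liver (23.9%), 17 in retina (4.06%), 1 in lung (4.73%) and 5 in kidney (12.4%). It was higher for 38 in heart (2.91%), 6 in retina (29.8%), 26 in lung (13.8%), 10 in brain (24.4%) and 3 in kidney (6.64%). Kidney, brain and retina thus had no larger share of members higher than of all genes, nor did kidney and lung of members lower.

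By RNA-seq, of 8 members, the change was lower for 8 in liver (16.5%) and 2 in heart (39.6%), and higher for 1 in heart (1.13%), 7 in retina (35.9%), 2 in lung (6.99%), 3 in brain (18%) and 1 in kidney (13.9%). Without liver in the mean of the others, 6 were higher in retina, 0 in brain and 4 lower in heart, and in kidney without E15.5 replicate 2 none was higher with liver in the mean. The cause of these differences was not tested.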

How the results depend on the processing

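Footprint falls varied least: in every tissue the count of members lower at P42 by Ribo-seq stayed within 1.5 times the main count under each alternative run. Footprint rises were few. With the testis forms left out (added after seeing the data) 0 were higher in brain, heart, kidney and lung. After centring on the median gene, and by median-of-ratios scaling, 3 were higher in kidney and 1 in liver, and 1 in liver with the libraries of the tissue alone. In lung 0 were higher with the libraries of the tissue alone, no filter, a pseudocount of 0.25 or 4, or the replicate block, and 0 to 1 when a library was left out.

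mRNA calls moved with the scaling. The counts in this section show how calls moved and are given without shares of all genes. Centred on the median gene, 7 members were higher in brain, 5 in heart and 6 in lung, and 2 were lower in brain, 1 in heart, 24 in kidney and 2 in lung. By median of ratios 6 were higher in heart and 6 in lung, and 1 was lower in brain, 1 in heart and 3 in lung. With mitochondrially encoded genes left out 4 were higher and 3 lower in heart, and 5 higher in lung. With a filter of 5 TPM 2 were higher in brain and 8 in retina, and 3 were lower in heart, 7 in kidney and 2 in lung. With a pseudocount of 4, 2 were higher and 3 lower in brain, and 3 lower in heart, 18 in kidney and 2 in lung; with no filter 8 were lower in heart. Leaving out a library gave 7 to 43 lower in kidney (7 without E15.5 replicate 2), 8 to 16 lower in lung and 2 to 5 higher in lung. The heart mRNA differences of Hist1h4i (0.46 centred, 0.52 by median of ratios) and Hist3h2a (0.25 and 0.56) and that of Hist2h2be (0.0859 by median of ratios) reversed, as did its heart footprints (0.0131 centred).

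Counts of the ratio are calls of member and tissue combinations over the 6 tissues, so 1 member can be counted several times. With an mRNA floor of 1 TPM 2 were higher and 33 lower, and 13 were lower with a floor of 20 TPM and a filter of 5 TPM, against 20. Leaving out a library gave 0 to 1 higher. Over the 12 groups footprints were below mRNA in 32 member and group combinations with no filter, 38 without centring and 12 with a pseudocount of 4, against 20. P42 tissue differences are likewise calls summed over the 6 tissues. By mRNA 9 were higher and 10 lower with a filter of 5 TPM and 9 lower with a pseudocount of 4, against 17 and 19. By footprints 43 were lower with a pseudocount of 4, against 73. These totals use the filter fixed in the design, a mean of 1 TPM over the libraries compared. With 1 TPM on every side of the contrast, as given between tissues and assays above, footprints were above mRNA in 200 tests, against 635, tissue differences by mRNA were 9 higher and 11 lower at E15.5, against 59 and 176, and 8 higher and 8 lower at P42. Between stages mRNA then rose for 2 members in brain and 6 in retina and fell for 7 in liver, 3 in heart, 3 in kidney and 2 in lung. Fewer features pass stricter filters; the cause of the other changes was not tested.

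Same-numbered replicates did not deviate together (correlations of -0.511 to 0.329 between stages), so the numbers were not taken as pairs. With the replicate number as a block, the lung footprint rise was lost and no other count moved by over 1.5 times. Low levels limit the mRNA tests, which reached 10 to 27 members outside kidney and liver.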
